A study of Mus musculus with 32 samples.

Results

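A group of 8 dual-specificity phosphatases that act on MAP kinases was followed in mouse liver: Dusp1, Dusp2, Dusp4, Dusp5, Dusp6, Dusp8, Dusp10 and Dusp16. They were named as a list with earlier results of these data known, without the family members Dusp7 and Dusp9, and make up 8 of the 22180 genes measured, each read from its brightest probe set. Liver RNA was measured in 32 mice, each with its own Affymetrix Mouse Gene 2.1 ST array. All mice were male wild-type C57BL/6NTac animals, 14 weeks old, that had fasted for 10 h before a gavage of palm oil (2 g/kg) or of water. The 7 control basal and 9 palm oil basal mice were killed under isoflurane 6 h after the gavage. The 7 control clamped and 9 palm oil clamped mice carried a jugular vein catheter placed earlier under ketamine and xylazine. From 6 h after the gavage they received labelled glucose for 110 min and then insulin at 15 pmol/kg/min, with blood glucose held at a target, the procedure known as a hyperinsulinemic-euglycemic clamp. They were killed with ketamine and xylazine. Insulin, the surgery, the infusions, the later time of sampling and the way of killing therefore cannot be told apart in any comparison of clamped with basal mice. Animal number runs with them as well, since the clamped mice carry numbers 15 to 32 and the basal mice numbers 33 to 52.

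MAP kinases are the last step of cascades in which 1 kinase activates the next, and they are switched on by phosphorylation of a threonine and a tyrosine in their activation loop. Dual-specificity phosphatases remove both phosphates and so switch the kinases off. Several of them are themselves transcribed in response to MAP kinase activity, which makes them feedback regulators with short-lived transcripts. In liver, Dusp1 has been studied for its part in lipid and glucose handling, and Dusp6 for its action on ERK and on the transcription factor FOXO1. By usual classification, Dusp1, Dusp2, Dusp4 and Dusp5 encode nuclear enzymes, Dusp6 a cytoplasmic enzyme selective for ERK, and Dusp8, Dusp10 and Dusp16 enzymes that prefer p38 and JNK.

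Values are log2 expression values, so that a difference of 1 is a doubling of the array signal. The median gene averaged 1.83 over all arrays. Dusp2, Dusp5 and Dusp8 averaged 2.10, 1.99 and 1.98, in the range where array values are compressed towards the background and differences are understated. Dusp4 averaged 2.74 and Dusp10 averaged 2.62. Dusp16 at 5.52, Dusp1 at 5.43 and Dusp6 at 7.62 were read well above the compressed range. In RNA of whole liver, fewer cells of a type and less RNA per cell cannot be told apart.

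Array medians lay between 1.65 and 1.77. Among the basal arrays, the 7 from animal number 44 upwards (4 control and 3 palm oil) had a narrower spread of values than the other 9 basal arrays, with interquartile ranges of 2.44 to 2.54 against 2.72 to 2.96. The clamped arrays ranged from 2.64 to 2.85. Markers of pancreatic acinar cells averaged above 6 log2 units in 12 arrays, of which 9 were basal (5 palm oil and 4 control) and 3 clamped (2 palm oil and 1 control). Hepatocyte markers were high in every array, with means of 10.43 to 10.79 and Alb (albumin) between 10.89 and 11.35.

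The start sites of 7 of the 8 genes, all but Dusp4, were found in RefSeq promoter windows of 300 bases (250 before and 50 after the start, GRCm38.p6), which were searched on both strands. The letters TGACGTCA, the cAMP response element bound by CREB and ATF factors, stood in the windows of Dusp1 and Dusp8, 2 of 7, against 1.79% of 32851 windows. These are shown because Dusp1 and Dusp8 were also the pair whose values moved together among mice by Pearson correlation. A link between the letters and that correlation was not tested. Capitals mark TGACGTCA or its shorter core TGACG, and all lines read along the gene's own strand, which is the minus strand in both.
Dusp1, chr17:26508596-26508675: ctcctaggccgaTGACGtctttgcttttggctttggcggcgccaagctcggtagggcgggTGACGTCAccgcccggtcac
Dusp8, chr7:142095374-142095401: cccgctccgcTGACGTCAcctgcccccg
Dusp8, chr7:142095330-142095357: tggctgcaggTGACGTCAggggcttttt

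In Dusp1 the element lay at -143 to -136 from the start, and a separate TGACG at -191 to -187. The Dusp8 copies lay at -107 to -100 and at -63 to -56. The core TGACG, which overlaps every full element, occurred in 5 of the 7 windows (Dusp1, Dusp2, Dusp5, Dusp8 and Dusp16) and in 20.8% of all windows. The window of Dusp5 was the single member window with a CArG box, the site named for serum response factor, which 1.63% of all windows hold. It is printed as a window of a gene that passed no test below, although it holds the TGACG core as well. Capitals mark 2 adjacent CArG boxes on the plus strand. The TGACG of Dusp5 lies on the minus strand at -55 to -51 and is left in lower case.
Dusp5, chr19:53529051-53529094: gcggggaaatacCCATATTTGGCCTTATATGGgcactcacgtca

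The ETS letters CCGGAAG (8.86% of windows), the AP-1 letters TGANTCA (7.81%) and the NF-kB site (8.46%) occurred in 0 of the 7 windows. The windows of Dusp6 and Dusp10 held none of the motifs searched. A match is a description of the letters and not evidence of binding. The annotated spans of Dusp8 and Dusp16 reach past the windows searched, so that another transcript of either may start further upstream.

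The first comparison asked how the phosphatases differed between clamped and basal livers. Dusp1, Dusp6 and Dusp8 were higher in clamped mice after either gavage, by 1.73-fold to 3.45-fold. Dusp4 and Dusp16 passed the test in palm oil mice alone, although the difference between the gavages was not itself past the test. Dusp2, Dusp5 and Dusp10 passed in neither. No member was lower. By limma with Benjamini-Hochberg adjustment over all genes at 0.05, 3 of 8 members were called in control mice, against 8.75% of all genes (4.66% higher). In palm oil mice 5 of 8 were called, against 7.57% of all genes (3.76% higher). All 8 members averaged above the median gene, where calls are more frequent. Among the 11090 genes above that level, tested alone, 20.8% were called in control and 17.6% in palm oil mice. The median log2 difference of the 8 members was 0.35 after water and 0.56 after palm oil, against -0.02 over all genes in both.

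**Figure D1:**
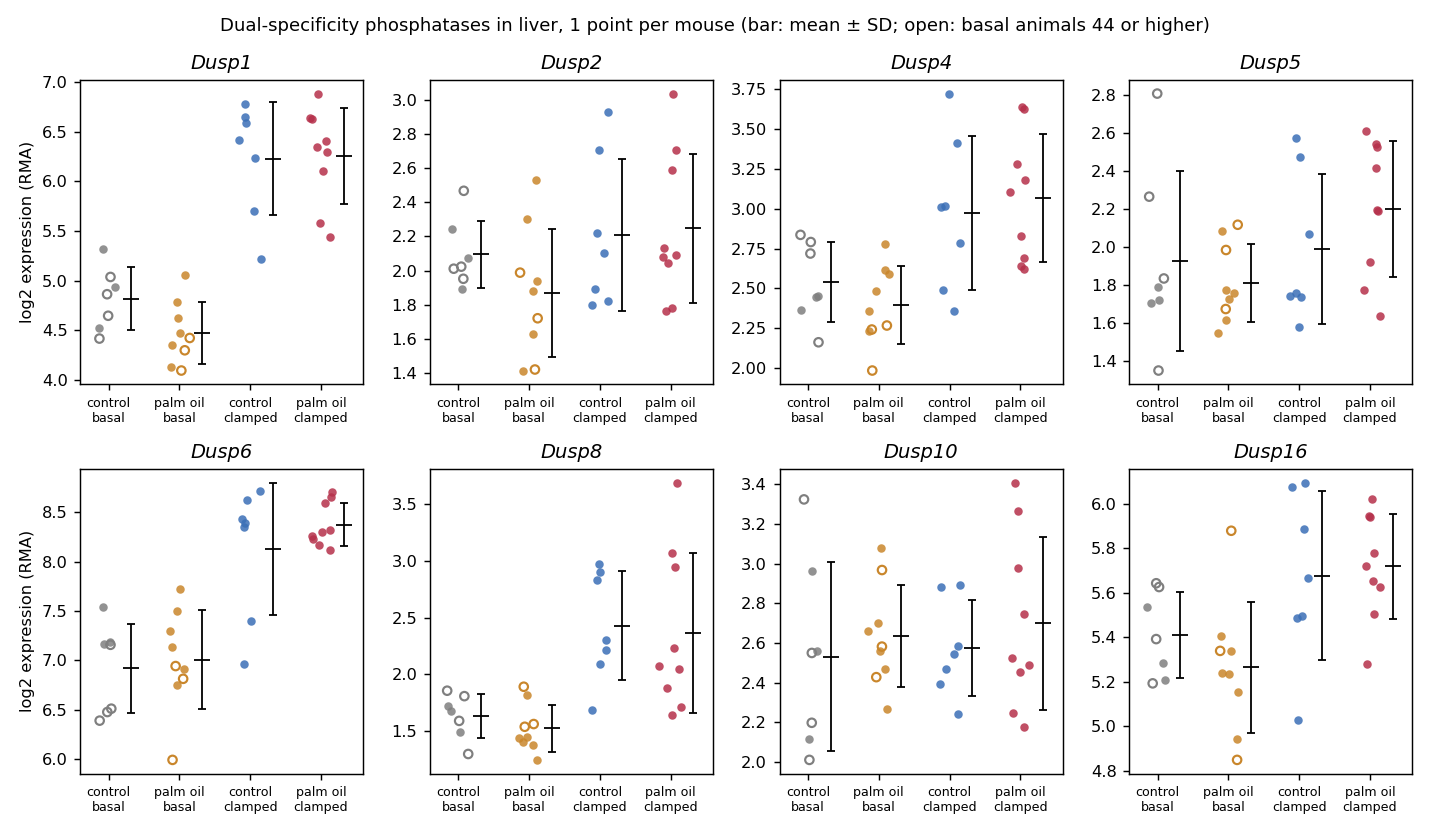
Log2 expression of the 8 phosphatases, 1 panel per gene and 1 point per mouse, in the control basal (n = 7), palm oil basal (n = 9), control clamped (n = 7) and palm oil clamped (n = 9) groups, with bars for mean ± SD and open points for basal animals numbered 44 or higher. Dusp1 and Dusp6 of the palm oil clamped mice lie above every palm oil basal mouse, while the groups of Dusp10 cover the same range; the vertical axes differ between panels.

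Dusp1 encodes MKP-1, an immediate early nuclear phosphatase that acts on p38, JNK and ERK. It lies at chr17:26505591-26508472 (GRCm38.p6). Its values ran from 4.42 to 5.31 in control basal mice (median 4.86) and from 5.22 to 6.78 in control clamped mice (median 6.42). In palm oil basal mice they ran from 4.09 to 5.06 (median 4.42), and in palm oil clamped mice from 5.43 to 6.88 (median 6.34). All 9 palm oil clamped mice lay above every palm oil basal mouse, and 6 of 7 control clamped mice lay above every control basal mouse. The clamped minus basal difference was 1.41 ± 0.216 in control mice (SE, 2.66-fold; limma adjusted p = 2.62e-05). In palm oil mice it was 1.79 ± 0.19 (3.45-fold; limma adjusted p = 4.19e-08). In order of group means, palm oil clamped (6.26) and control clamped (6.23) stood together, with control basal (4.82) and palm oil basal (4.47) below. Within a state, neither pair of neighbours passed the limma test, and their values overlapped; the basal pair differed by 0.35, against an SD of 0.31 in each.

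Dusp6 encodes MKP-3, the cytoplasmic phosphatase of ERK, at chr10:99263231-99267489. Control basal mice ranged from 6.39 to 7.54 (median 7.16) and control clamped mice from 6.96 to 8.71 (median 8.39). Palm oil basal mice ranged from 5.99 to 7.72 (median 6.94) and palm oil clamped mice from 8.12 to 8.71 (median 8.30). The palm oil groups did not overlap, and 5 of 7 control clamped mice lay above every control basal mouse. Groups without overlap, clamped above basal, were found for 2 of 8 members in palm oil mice (Dusp1 and Dusp6), against 0.866% of all genes, and for 0 of 8 in control mice, against 1.39%. The difference of Dusp6 was 1.21 ± 0.237 in control mice (2.31-fold; limma adjusted p = 0.000704) and 1.36 ± 0.209 in palm oil mice (2.57-fold; limma adjusted p = 2.46e-05). Its spread was an SD of 0.67 in control clamped and 0.22 in palm oil clamped mice. A second probe set of Dusp6 gave 1.48 (limma adjusted p = 0.000482) and 1.64 (limma adjusted p = 2.04e-05).

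The level of Dusp6 also differed between the basal arrays. Control basal mice averaged 7.30 ± 0.21 (SD, n = 3) below animal 44 and 6.63 ± 0.35 (n = 4) from animal 44 on. Palm oil basal mice averaged 7.22 ± 0.36 (n = 6) and 6.58 ± 0.51 (n = 3). Against the lower-numbered basal mice alone the difference in control mice was 0.83 and no longer passed (limma adjusted p = 0.0854), and against the higher-numbered alone it was 1.49 (limma adjusted p = 0.000511). After palm oil the values were 1.15 and 1.79, and Dusp6 was called with both sets of basal arrays.

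**Figure D2:**
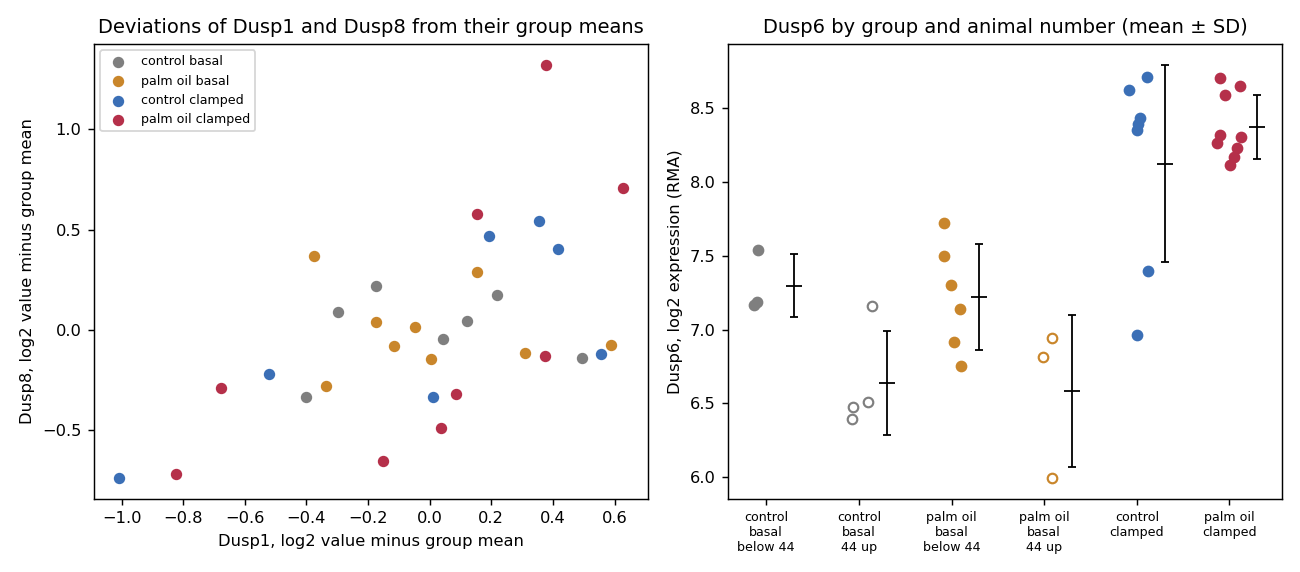
Left, deviations of Dusp1 (horizontal axis) and Dusp8 (vertical axis) from their group means, log2 units, 1 point per mouse coloured by group. Right, log2 expression of Dusp6 with the basal groups split at animal number 44 (mean ± SD); the basal means are 7.30 and 7.22 below 44 and 6.63 and 6.58 from 44 on, all under the clamped means of 8.12 and 8.37.

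Dusp8 encodes a phosphatase that prefers JNK and p38, at chr7:142079487-142095907. Its array values were low in basal mice, from 1.30 to 1.86 in the control (median 1.68) and from 1.25 to 1.89 in the palm oil group (median 1.45). In clamped mice they spread from 1.69 to 2.97 after water (median 2.31) and from 1.64 to 3.69 after palm oil (median 2.07). In both gavage groups 6 clamped mice lay above every basal mouse, and the rest overlapped with them. The differences were 0.79 ± 0.231 in control mice (1.73-fold; limma adjusted p = 0.0241) and 0.84 ± 0.204 in palm oil mice (1.79-fold; limma adjusted p = 0.00618). The call in control mice was lost without control basal mouse 5 or without control clamped mouse 1, 5 or 7. Each left a difference of 0.70 to 0.74 with a limma adjusted p of 0.0532 to 0.0697. It was also lost against the basal mice below animal 44 alone (0.80, limma adjusted p = 0.194) or those from 44 on alone (0.79, limma adjusted p = 0.105). After palm oil, Dusp8 was called against the former (0.91) and not against the latter (0.70, limma adjusted p = 0.202).

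Dusp4 encodes MKP-2, a nuclear phosphatase of ERK, JNK and p38, at chr8:34807610-34819894. Control basal mice ranged from 2.16 to 2.84 (median 2.46) and control clamped mice from 2.36 to 3.72 (median 3.01). Palm oil basal mice ranged from 1.99 to 2.78 (median 2.36) and palm oil clamped mice from 2.62 to 3.64 (median 3.11). All groups overlapped, and 9 of 9 palm oil clamped mice lay above the median of the palm oil basal mice. The difference was 0.67 ± 0.16 in palm oil mice (1.59-fold; limma adjusted p = 0.00509). In control mice it was 0.43 ± 0.181, with an unadjusted p of 0.0233 that missed the threshold after adjustment (limma adjusted p = 0.152). Against the palm oil basal mice below animal 44 alone, Dusp4 missed the threshold in palm oil mice as well (0.56, limma adjusted p = 0.0718), and against those from 44 on alone it was called (0.90, limma adjusted p = 0.0206).

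Dusp16 encodes a phosphatase of JNK and p38, at chr6:134715468-134807063. Its values lay between 5.19 and 5.64 in control basal (median 5.39) and between 5.03 and 6.09 in control clamped mice (median 5.67). After palm oil they lay between 4.85 and 5.88 in basal (median 5.24) and between 5.28 and 6.02 in clamped mice (median 5.72). The clamped and basal ranges overlapped throughout, and 3 of 9 palm oil clamped mice exceeded every palm oil basal mouse. The difference was 0.45 ± 0.131 in palm oil mice (1.37-fold; limma adjusted p = 0.0255) and 0.26 ± 0.148 in control mice (limma adjusted p = 0.321). The call in palm oil mice lay near the threshold and was kept in 27 of 32 removals of a single array. It was lost without palm oil basal mouse 1 or 7 or palm oil clamped mouse 4, 6 or 8, with differences of 0.40 to 0.43 and limma adjusted p of 0.0509 to 0.0607. Against the palm oil basal mice from animal 44 on alone it was 0.36 (limma adjusted p = 0.301), and against those below 44 alone 0.50 (limma adjusted p = 0.0273).

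The other 3 members passed in neither gavage group. Dusp5, a nuclear ERK phosphatase at chr19:53529145-53541809, ranged from 1.35 to 2.81 in control basal (median 1.79) and from 1.58 to 2.57 in control clamped mice (median 1.76). After palm oil it ranged from 1.55 to 2.12 in basal (median 1.76) and from 1.64 to 2.61 in clamped mice (median 2.20). The control groups covered the same values, while 6 of 9 palm oil clamped mice exceeded all palm oil basal mice. Its differences were 0.07 ± 0.184 (limma adjusted p = 0.896) and 0.39 ± 0.162 (unadjusted p = 0.0209, limma adjusted p = 0.16).

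Dusp2, a nuclear phosphatase best known from activated lymphocytes and macrophages, lies at chr2:127336159-127338377. It ranged from 1.89 to 2.47 in control basal (median 2.02) and from 1.80 to 2.93 in control clamped mice (median 2.10). After palm oil it ranged from 1.42 to 2.53 in basal (median 1.88) and from 1.76 to 3.04 in clamped mice (median 2.09). All groups overlapped. The differences were 0.12 ± 0.194 (limma adjusted p = 0.81) and 0.38 ± 0.171 (unadjusted p = 0.0337, limma adjusted p = 0.213).

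Dusp10 encodes MKP-5, a phosphatase of p38 and JNK, at chr1:184034381-184075636. Its 4 medians lay between 2.53 and 2.58, and its values between 2.01 and 3.41. The groups could not be told apart by their ranges. The differences were 0.04 ± 0.187 in control mice (limma adjusted p = 0.941) and 0.06 ± 0.165 in palm oil mice (limma adjusted p = 0.902). The 95% intervals, -0.34 to 0.42 and -0.27 to 0.40, bound the size of a difference in array signal that these mice could hide.

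**Figure D3:**
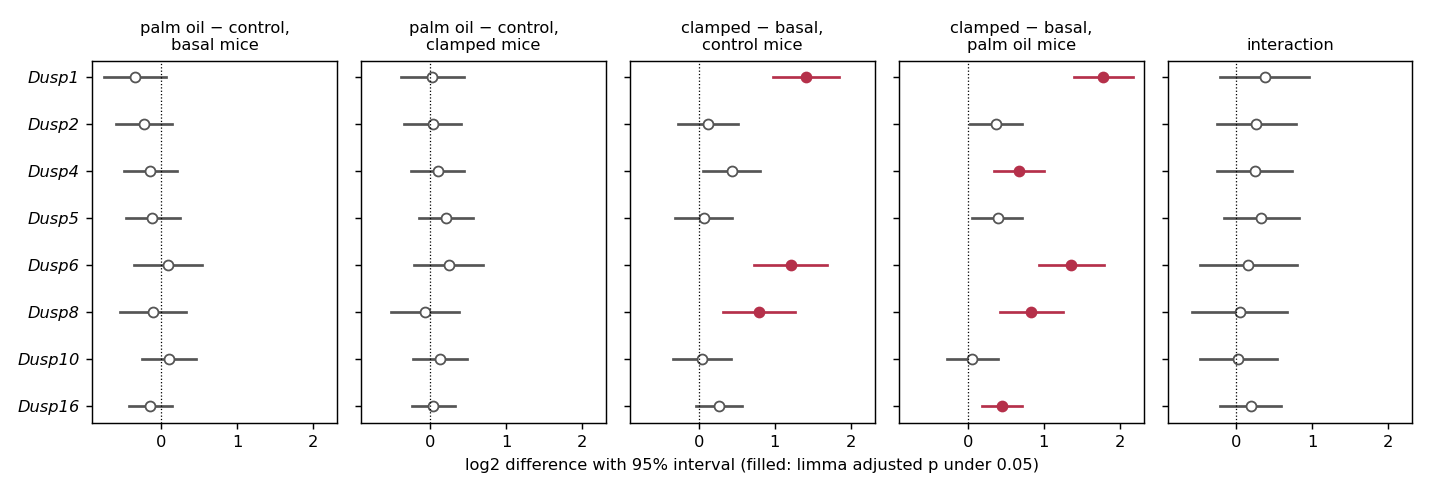
Log2 difference of each phosphatase in the 5 comparisons, 1 panel per comparison, with 95% intervals as horizontal lines and filled red points where the limma adjusted p was under 0.05. Dusp1, Dusp6 and Dusp8 are filled in both clamped minus basal panels, Dusp4 and Dusp16 in palm oil mice alone, and none in the palm oil or interaction panels.

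The second comparison asked whether palm oil changed the phosphatases. It called 0 of 8 members in basal mice and 0 of 8 in clamped mice, where limma called 0.0% of all genes as well. At an unadjusted p under 0.05, 0 of 8 members and 1134 genes (5.11%) differed in basal mice, and 0 of 8 members and 781 genes (3.52%) in clamped mice. An exact rank sum test called 0 genes in either state after adjustment, with 774 and 723 at an unadjusted p under 0.05.

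In basal mice the member differences ran from -0.35 ± 0.204 for Dusp1 (unadjusted p = 0.0962, limma adjusted p = 0.977) to 0.10 ± 0.176 for Dusp10. Dusp2 differed by -0.23 ± 0.182, Dusp16 by -0.15 ± 0.14 and Dusp4 by -0.14 ± 0.171. The values of Dusp1 overlapped, with 1 of 9 palm oil basal mice above the control basal median. In clamped mice the differences ran from -0.06 ± 0.218 for Dusp8 to 0.25 ± 0.224 for Dusp6, and Dusp1 differed by 0.03 ± 0.204. The 95% intervals of all 8 members lay within -0.76 and 0.54 in basal mice and within -0.51 and 0.70 in clamped mice.

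The interaction, the clamped minus basal difference in palm oil mice minus that in control mice, was called for 0 of 8 members and 0.0% of all genes (773 genes, 3.49%, at an unadjusted p under 0.05). It was 0.38 ± 0.288 for Dusp1 (unadjusted p = 0.199) and 0.33 ± 0.245 for Dusp5 (unadjusted p = 0.191), the lowest p of the 8 (limma adjusted p = 1.0 for every member). For Dusp4 and Dusp16, called in palm oil mice alone, it was 0.24 ± 0.242 and 0.19 ± 0.198. All 8 estimates were above 0, as were those of 49.7% of all genes, with a median of 0.22 against 0 over all genes. Each interval included 0, and together they spanned -0.58 to 0.96. The comparisons share mice, so their signs are not separate pieces of evidence.

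Mice within a group also differed from each other. Control clamped mouse 6 had the lowest value of its group for Dusp1 (5.22), Dusp4 (2.36), Dusp6 (6.96), Dusp8 (1.69) and Dusp16 (5.03). Without it the clamped minus basal difference in control mice was 1.58 for Dusp1, 1.40 for Dusp6 and 0.92 for Dusp8, and the same 3 members were called. Palm oil clamped mouse 2 was lowest in its group for Dusp1 (5.43), Dusp5 (1.64), Dusp8 (1.64) and Dusp16 (5.28).

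Over all 28 pairs of members, correlations of the values minus their group means (32 mice) ran from -0.29 to 0.55, with a median of 0.10. Dusp1 with Dusp8 was the single pair that passed, with Pearson r = 0.55 (permutation p = 0.00129, adjusted over 28 pairs 0.0361). The permutations mixed mice of all groups, although Dusp8 spread more in clamped mice. Its SD was 0.19 in control basal and 0.21 in palm oil basal, against 0.48 in control clamped and 0.70 in palm oil clamped mice. The permutation p is therefore approximate. Spearman rho was 0.51 (permutation p = 0.00296), which missed the threshold after adjustment (0.0829). Without the 2 mice farthest from the median of Dusp1, r was 0.40, and without the 2 farthest in Dusp8 it was 0.50. Within groups r was 0.75 in control clamped and 0.67 in palm oil clamped mice, against 0.12 in control basal and -0.16 in palm oil basal mice. The correlations were thus larger in the clamped groups, and the difference between the states was not tested. With the basal groups also split at animal 44, r was 0.59 (permutation, adjusted p = 0.0104).

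Of 32 relations between a member and an array measure, also over values minus group means, 1 passed: Dusp6 with the mean of the hepatocyte markers, with r = 0.55 (permutation p = 0.0009, adjusted 0.0288) and rho = 0.54 (permutation p = 0.00172, adjusted 0.055). It was 0.44 without the 2 farthest mice, 0.71 over basal and 0.33 over clamped mice, and 0.28 once the basal groups were split at animal 44. Dusp6 with the interquartile range of the array had r = 0.44 (permutation p = 0.0122, adjusted 0.13) and -0.08 after that split. Dusp5 with the neutrophil marker mean had r = 0.48 (permutation p = 0.00512, adjusted 0.0819).

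For the 5 members called in either clamped minus basal comparison, the genes with the most similar deviations were listed among 10272 brighter genes, over 32 mice and as a description without a test. Dusp1 was followed most closely by Rgn (regucalcin, r = 0.79), Car3 (a carbonic anhydrase, 0.78) and Aldh1a1 (a retinal dehydrogenase, 0.77). Their own clamped minus basal differences in control mice were -0.19, -0.72 and -0.32. Dusp6 was followed by Otc (a urea cycle enzyme, r = 0.84), Aadac (an esterase, 0.83) and Rdh7 (a retinol dehydrogenase, 0.82), whose clamped minus basal differences in control mice were 0.01, 0.03 and -0.13.

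Dusp8 was followed by Csrnp1 (r = 0.66), Nr4a1 (an immediate early nuclear receptor, 0.64) and Irf7 (an interferon regulatory factor, 0.64). Their clamped minus basal differences were 1.02, 1.86 and -0.16 in control mice and 0.81, 2.05 and 0.07 in palm oil mice. Dusp4 was followed by Txnip (a thioredoxin-binding protein, r = 0.67), Glyat (0.62) and Fam107a (0.62), which pointed in different directions in control mice (-1.17, -0.23 and 2.29). Dusp16 was followed by Ypel2 (0.73), Zscan21 (0.66) and Megf9 (0.65), with differences of 0.99, 0.48 and 1.14. All 15 correlations kept their sign without the 2 farthest mice, at 0.45 to 0.78.

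The rest of the family and the pathway were described from lists, each read against the 8.75% of all genes called in control and the 7.57% in palm oil mice. Among genes above the median level, tested alone, the shares were 20.8% and 17.6%. A list of well expressed genes with a share near these does not stand out. Over all lists 27 genes were called in control and 31 in palm oil mice, which became 17 and 13 once arrays high in acinar markers were left out. The share of all genes called fell in that setting as well, to 4.48% in control and 3.32% in palm oil mice. Of the other typical dual-specificity phosphatases, Dusp7 and Dusp9, 0 of 2 passed. Dusp7 differed by -0.12 ± 0.12 after water and -0.03 ± 0.11 after palm oil, and Dusp9 by 0.01 ± 0.17 and 0.19 ± 0.15. Of 15 atypical dual-specificity phosphatases, which lack the kinase-binding domain, 1 rose and 1 fell in control mice and 0 rose and 1 fell in palm oil mice. Dusp11 rose by 0.53 ± 0.12 in control mice (limma adjusted p = 0.00339). Dusp22 fell by 0.40 ± 0.11 in control (limma adjusted p = 0.0206) and by 0.51 ± 0.10 in palm oil mice (limma adjusted p = 0.000661). Of 7 phosphatases of other families that act on MAP kinases, 0 passed.

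Among 11 MAP kinases 0 rose and 1 fell in control mice, and 1 rose and 0 fell in palm oil mice. Mapk15, an atypical member, fell by 0.65 ± 0.19 in control mice (limma adjusted p = 0.0217). Mapk14, which encodes p38 alpha, rose by 0.39 ± 0.10 in palm oil mice (limma adjusted p = 0.0159) and is named after its value was seen. Of 6 MAP kinase kinases, Map2k4 rose by 0.53 ± 0.13 in control mice, while Map2k6 fell by 1.05 ± 0.26 and Map2k3 by 0.40 ± 0.12. In palm oil mice 0 of 6 passed.

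Of 19 MAP kinase kinase kinases, 3 rose and 1 fell in control mice, and 6 rose and 1 fell in palm oil mice. Map3k1 rose by 1.16 ± 0.19 and 0.88 ± 0.17, Map3k6 by 0.93 ± 0.20 and 0.86 ± 0.17, and Map3k14 by 0.62 ± 0.14 and 0.39 ± 0.12. Of 13 genes between receptors and RAS, 2 rose in both gavage groups: Egfr, the EGF receptor (0.78 ± 0.14 and 0.89 ± 0.12), and Grb2, its adaptor (0.51 ± 0.16 and 0.45 ± 0.14). In palm oil mice 1 of them fell, the receptor gene Erbb3 (-0.34 ± 0.09), named after its value was seen.

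Feedback inhibitors at the receptor and RAS level are the counterpart of the phosphatases, since they damp the same cascade upstream. Of 12, 1 rose in control and 4 rose in palm oil mice. Lrig1, a receptor inhibitor, rose by 0.83 ± 0.14 and 0.78 ± 0.13. Named after their values were seen, Spry4 rose by 1.31 ± 0.26, Spred1 by 0.40 ± 0.12 and Errfi1 by 0.35 ± 0.09 in palm oil mice. Of 8 kinases downstream of MAP kinases 2 rose in control mice, Mapkapk2 (0.60 ± 0.14) and Mknk2 (0.65 ± 0.16), and 1 in palm oil mice (Mapkapk2, 0.42 ± 0.12). Of 8 scaffolds 0 passed in control and 2 rose in palm oil mice.

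The list of transcription factors downstream of MAP kinases had the largest share called of these lists in both gavage groups. It holds immediate early genes such as Egr1 and Jun, and also factors such as Elk1, Elk3, Elk4 and Srf that are not immediate early genes. The activity of MAP kinases was not measured. Of 20 measured, 10 rose and 2 fell in control mice, and 11 rose and 1 fell in palm oil mice. Egr1 rose by 4.38 ± 0.41 and 4.50 ± 0.36, Jun by 2.95 ± 0.30 and 2.32 ± 0.27, and Junb by 2.50 ± 0.27 and 2.45 ± 0.24. Elk3 and Myc, the 2 that fell in control mice, are named after their values were seen. Elk3, a repressor of the ETS family, fell by 0.88 ± 0.15 and 0.41 ± 0.13. Myc fell by 0.61 ± 0.19 in control mice (limma adjusted p = 0.0379), and differed by 0.33 ± 0.17 in palm oil mice (limma adjusted p = 0.3). Its interaction was 0.94 ± 0.26 (unadjusted p = 0.000795, limma adjusted p = 1).

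**Figure D4:**
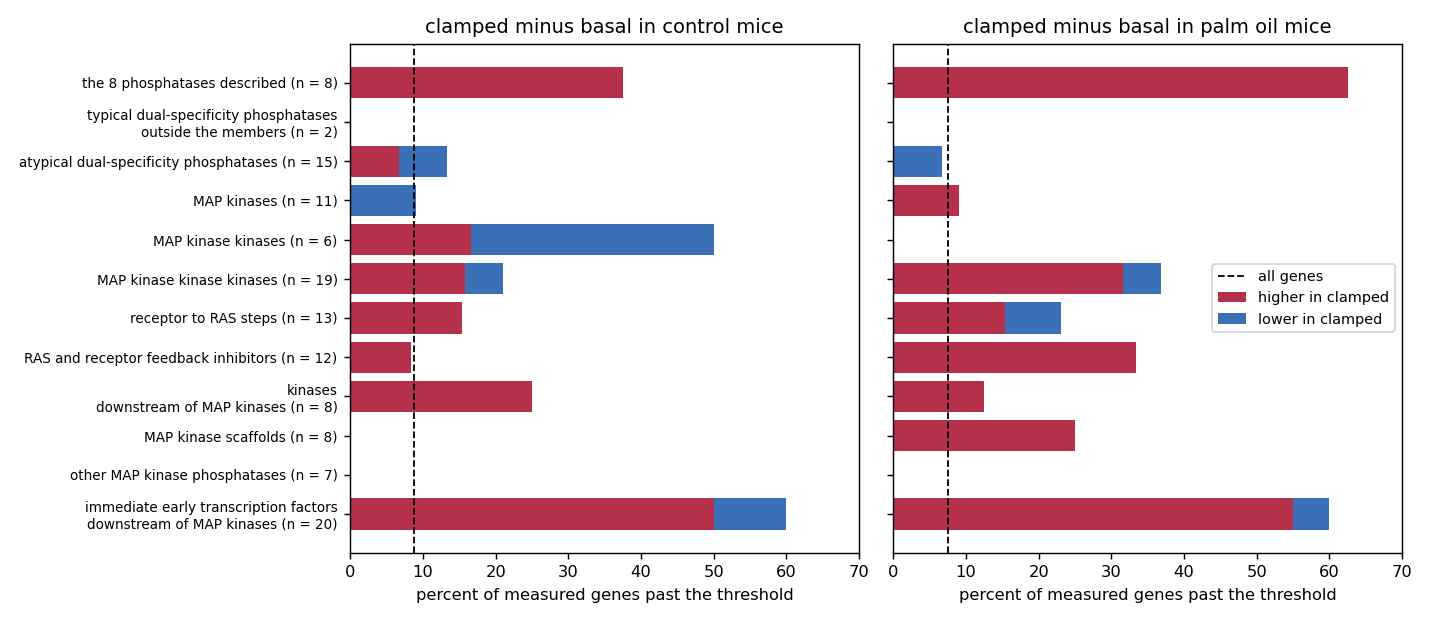
Percent of the measured genes of each list past the threshold (limma adjusted p under 0.05), higher (red) or lower (blue) in clamped mice, in control (left) and palm oil mice (right), with the share over all genes as a dashed line. The 8 phosphatases and the list labelled immediate early transcription factors have the longest red bars in palm oil mice. Of the 7 other MAP kinase phosphatases 0 passed in either.

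Some markers of other cells also differed between clamped and basal mice. Among genes above the median level, tested alone, 20.8% were called in control and 17.6% in palm oil mice. Against these shares the neutrophil list stood out in both gavage groups, and the Kupffer cell list to a lesser degree. The remaining lists held too few called genes to be told apart from these shares. Of 10 neutrophil markers 5 rose in both gavage groups, and their mean lay between 1.65 and 2.36 in basal and between 2.50 and 3.29 in clamped mice. S100a8 rose by 3.58 ± 0.37 and 3.85 ± 0.32, whereas the neutrophil genes Mpo, Elane, Ly6g, Camp and Ltf stayed at or below 2.19 in every array. Of 7 Kupffer cell markers 3 rose after water and 2 after palm oil, with Marco at 1.62 ± 0.34 and 1.65 ± 0.30. Of 7 sinusoidal endothelial markers 1 rose and 1 fell in both gavage groups, and of 4 cholangiocyte markers 1 rose in both. Of 6 stellate cell markers 0 passed in control mice, and 1 rose and 1 fell in palm oil mice. Of 5 B and T cell markers 0 passed in control and 1 fell in palm oil mice, and of 8 hepatocyte markers 2 and 1 rose. Of 7 acinar markers 0 passed, with median differences of -3.49 and -3.03. The part of these cells in the phosphatase differences was not tested. As measurements, Dusp1 and Dusp6 were called in both gavage groups without the 12 arrays high in acinar markers (Dusp1 at 1.43 and 1.60, Dusp6 at 1.13 and 1.22). In those 20 arrays Dusp8 had differences of 0.89 and 0.92, Dusp4 of 0.60 and Dusp16 of 0.53 in palm oil mice, none past the threshold (limma adjusted p = 0.126 to 0.175). Of all genes, 4.48% in control and 3.32% in palm oil mice were called in those arrays.

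**Figure D5:**
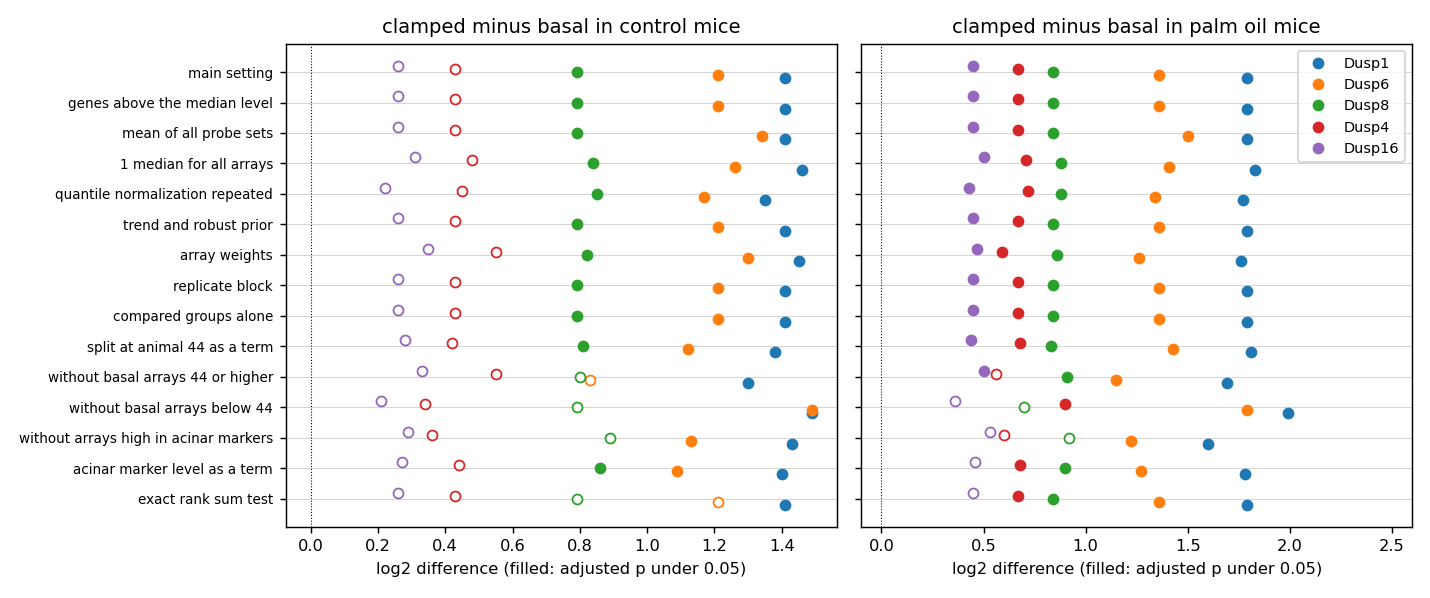
Clamped minus basal log2 difference of the 5 members called in either gavage group (colours), under the reported and 14 other settings (rows), in control (left) and palm oil mice (right), filled where the adjusted p was under 0.05. Dusp1 is filled in every row on both sides and Dusp6 in every palm oil row, while Dusp4 and Dusp16 are open in every control row. Dusp6 and Dusp8 in control mice, and Dusp8, Dusp4 and Dusp16 in palm oil mice, are open in some rows. Those rows include settings that leave out arrays and others that do not, such as the rank sum test. The horizontal axes differ.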

How the data were processed

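The submitters' processing notes name RMA and Affymetrix Expression Console (version 1.3.0.187) as the tools of the authors, whose deposited log2 values were taken unchanged. RMA corrects background and normalizes arrays to each other. Of 41345 probe sets, 23521 carried 1 gene symbol, 1814 several and 16010 were unnamed. The probe set with the highest mean was taken for each of 1082 genes with several, which left 22180 genes.

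Groups came from the sample titles. The fit was limma 3.58.1 (R 4.3.3; lmFit and eBayes) on 32 arrays with 1 mean for each of 4 groups, 28 residual degrees of freedom, 5 contrasts, Benjamini-Hochberg adjustment over all genes and a threshold of 0.05. It was tested on simulated data, made by shuffling the arrays' deviations from group means over the groups. Differences in spread tied to a group were not kept in them. Values after ± are standard errors unless named SD. Each array is a separate mouse, and the number of arrays limits the precision.

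Correlations used 100000 permutations, two-sided. Likeness was Pearson r after group means were removed; predicted gene models and small RNAs were left out, and the first 3 genes named. Of each list, up to 3 called genes with the smallest p in control mice were named, with exceptions stated. The members and lists were chosen with earlier results of these data known. Promoters came from RefSeq tables, and 7 of 8 members matched.

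The alternatives were the filter on dim genes, probe set choice, array medians, normalization, prior, array weights, replicate block, compared groups alone, animal number, acinar level, a rank sum test and the removal of single arrays.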

Additional observations from a re-analysis of the deposited data

How the results depend on the processing

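Dusp1 was called in both clamped minus basal comparisons under all settings run, at 1.30 to 1.58 in control and 1.60 to 1.99 in palm oil mice, and Dusp6 in palm oil mice at 1.15 to 1.79. The count of members called in control mice was 1 without the basal arrays 44 or higher and 1 by the exact rank sum test, where Dusp6 had an adjusted p = 0.121 and Dusp8 of 0.0661. Dusp16 missed the threshold in palm oil mice by that test (adjusted p = 0.0532) and with the acinar level as a term (0.056). The count in palm oil mice was 3 without the basal arrays below 44, chosen after seeing the data, and 2 when arrays high in acinar markers were left out. In these settings 9.83% and 3.32% of all genes were called in palm oil mice. Leaving out each array gave 2 to 3 in control and 4 to 5 in palm oil mice. Called list genes numbered 17 in control (27 as reported) and 13 in palm oil mice (31 as reported) without the arrays high in acinar markers. The share of all genes called was then 4.48% in control (8.75% as reported) and 3.32% in palm oil mice (7.57% as reported). By Spearman's rho 0 member pairs passed. With 1 median for all arrays, 1275 genes were higher and 668 lower in control mice (1033 and 907 as reported), and 980 and 602 in palm oil mice (835 and 843).

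Under these settings, signs turned for differences that were not called as reported. Palm oil minus control in clamped mice became -0.04 for Dusp1, -0.02 for Dusp4 and -0.03 for Dusp16 with array weights, and -0.04 for Dusp1 without the arrays high in acinar markers. In basal mice Dusp4 became 0.09, Dusp5 0.01 and Dusp6 -0.08 without the arrays 44 or higher, Dusp4 0.10 without those high in acinar markers, Dusp6 -0.06 with the split as a term, and Dusp6 -0.05 and Dusp8 0.03 without the arrays below 44. Clamped minus basal in control mice became -0.07 for Dusp5 without the arrays below 44, -0.23 without those high in acinar markers and -0.04 with that level as a term, and -0.01 for Dusp10 with array weights. The interaction became -0.04 for Dusp6 with array weights, -0.09 for Dusp8 and -0.01 for Dusp10 without the arrays below 44, and -0.39 for Dusp10 without those high in acinar markers. The cause was not tested.

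Leaving out each array in turn moved palm oil minus control in clamped mice over -0.14 to 0.13 for Dusp1, -0.06 to 0.16 for Dusp2, 0 to 0.22 for Dusp4, -0.23 to 0.03 for Dusp8 and -0.07 to 0.11 for Dusp16, and in basal mice over -0.21 to 0.03 for Dusp5. Clamped minus basal moved over 0 to 0.18 for Dusp2, -0.03 to 0.21 for Dusp5 and -0.04 to 0.17 for Dusp10 in control mice, and -0.03 to 0.13 for Dusp10 in palm oil mice. The interaction moved over -0.04 to 0.26 for Dusp6, -0.12 to 0.14 for Dusp8 and -0.11 to 0.11 for Dusp10.

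Deviations of same-numbered mice correlated at -0.234 to 0.291. They were not compared with those of differently numbered mice, so whether the replicate number pairs mice was not tested. With the replicate block, 3 members were called in control and 5 in palm oil mice, as without it, over 1923 and 1629 genes called, and the palm oil differences in clamped mice became -0.03 for Dusp1, -0.02 for Dusp2 and -0.02 for Dusp16.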
